A study of Caenorhabditis elegans with 9 samples.

Results

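*atf-4(tm4397)* animals, which carry a deletion in the gene for the transcription factor ATF-4, were compared with wild type (WT) by RNA sequencing of whole *C. elegans* at the L4 stage, the last larval stage. The comparison used 6 of the 9 libraries of the series, 3 of *atf-4(tm4397)* (strain LD1325) and 3 of WT (strain N2), chosen by the genotype that the labels and the columns of the centred and scaled expression sheet give them. The remaining 3 libraries are of ATF-4OE, which overexpresses ATF-4 from the integrated transgene *ldIs119*. That transgene also carries the mutant collagen gene *rol-6(su1006)* as its co-injection marker. These 3 libraries are given only beside genes of the mutant comparison, whose WT libraries they share. Each library is poly(A) RNA of about 20000 synchronised animals grown without added stress at 20 °C on *E. coli* OP50, with all genotypes of one replicate cultured in parallel. The mutant is 1 outcrossed allele, whose deletion removes the start codon and the first exon by the study's description. With 1 mutant strain, loss of *atf-4* and other differences of that strain from WT cannot be told apart. The deletion is carried in all tissues, and in whole animals fewer cells of a type and less RNA per cell cannot be told apart.

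In mammals, ATF4 is a basic leucine zipper factor made when phosphorylation of the initiation factor eIF2 slows translation, the integrated stress response. It is known for turning on genes of amino acid uptake and synthesis, of tRNA charging, of transsulfuration (the route that makes cysteine and hydrogen sulfide) and of redox balance. The study reports that in *C. elegans* other blocks of translation can raise ATF-4 without canonical induction of the integrated stress response. The mutant comparison asks how much of the transcriptome depends on *atf-4* in animals that were not stressed.

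Depth was 26.9, 30.5 and 27.5 M reads in *atf-4(tm4397)* and 28.6, 25.01 and 26.99 M reads in WT. The deposited sheets disagree on which library is which. Matched by their values, 2 of 9 libraries carry the same sample name and 3 the same genotype in the RPKM sheet as in the centred sheet, while the sheet of most regulated genes gives the genotypes of the centred sheet. Names were taken from the centred sheet throughout. Under the RPKM sheet's names, 0 genes passed the test in either direction (limma, 10378 genes, 104 at an unadjusted p under 0.05). The results below thus hold for the genotypes of the centred sheet, which the sheet of most regulated genes shares, and not for those of the RPKM sheet. Under the names of the centred sheet, and not under those of the RPKM sheet, the deleted gene *atf-4* was far lower in the mutant. Its log2 fold change was -4.98 under the centred sheet's names and 0.15 under the RPKM sheet's names. Levels are in parts per 1000000 (ppm) of a library's summed RPKM, a measure per gene length, and fold changes are of *atf-4(tm4397)* over WT on the log2(ppm + 1) scale, which understates the change of low genes.

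Few genes passed the test between *atf-4(tm4397)* and WT, with 3 libraries per group. Of the 11287 genes that reached 5 ppm in any library, 3 rose (0.0266%) and 2 fell (0.0177%) past both limits of the test, a Benjamini-Hochberg adjusted p of 0.1 (limma) and a log2 fold change of 1. The genes that rose were *spp-21*, *scb-1* and *lido-11*, and the genes that fell were *atf-4* and *T25C12.3*. A further gene, *F18E3.12*, rose by less than the fold limit, which makes 4 genes higher (0.0354%) at an adjusted p under 0.1. The median log2 fold change of all genes tested was 0.02, their median standard error was 0.17, and 168 genes were beyond a log2 fold change of 1 in size. At an unadjusted p under 0.05, 565 genes were higher (5.01%) and 611 lower (5.41%). Both directions together are 1176 genes, above the share of 0.05 that a two-sided test without any difference gives on average. A gene that did not pass is therefore not shown to be unchanged. The 3 mutant libraries lay above the 3 WT libraries without overlap for 6.07% of genes and below them for 7.98%, and these shares are the background for the counts given below.

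**Figure D1:**
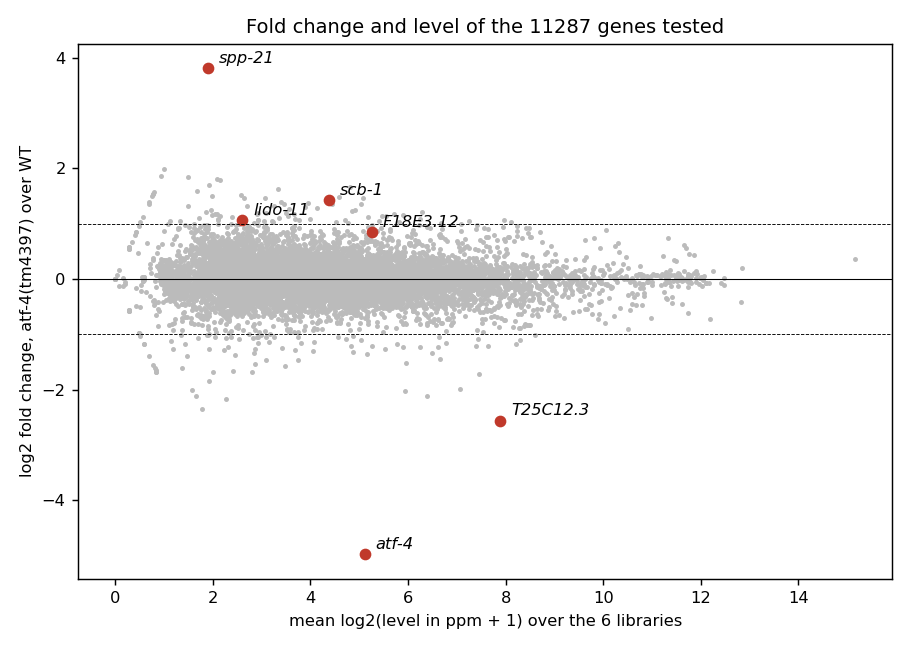
Log2 fold change of *atf-4(tm4397)* over WT (vertical axis) against the mean log2(ppm + 1) over the 6 libraries (horizontal axis), 1 point per gene tested, with dashed lines at a log2 fold change of 1 in size. The 6 red points are the genes at an adjusted p under 0.1; *atf-4*, *T25C12.3* and *spp-21* stand apart from the cloud, and *F18E3.12* lies inside the dashed lines.

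The deleted gene itself was the most reduced. *atf-4* (chromosome X, 14809156 to 14810810, minus strand, WBcel235) was at 3.81, 3.69 and 9.31 ppm in *atf-4(tm4397)*, against 199.6, 167.7 and 214.5 ppm in WT. These levels correspond to 84, 88 and 193 reads in the mutant libraries and to 4622, 3458 and 4710 reads in the WT libraries. No mutant library came near a WT library, and the third mutant library had more residual signal than the other two. The log2 fold change was -4.98 (SE 0.30, limma adjusted p = 4.4e-04). In ATF-4OE the gene was at 5289, 4184 and 6845 ppm. Totals per gene do not show where in the gene the mutant reads lie, and their source was not tested.

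No gene beside *atf-4* on chromosome X passed the test, among 10 measured neighbours, 5 on each side. The largest positive value was that of the piRNA gene *21ur-15136*, a log2 fold change of 0.86 (SE 0.59). It had 0, 0 and 2 reads in *atf-4(tm4397)*, against 0, 0 and 0 in WT, and 734, 529 and 921 reads in ATF-4OE. *epn-1*, which encodes the endocytic adaptor epsin, and the kinase gene *mbk-1* were at log2 fold changes of 0.30 (SE 0.18) and 0.21 (SE 0.17). The neighbour with the largest negative value was *Y16B4A.2*, at 171.2, 183.6 and 128.7 ppm in *atf-4(tm4397)*, against 249.7, 196.7 and 259.1 ppm in WT (log2 fold change -0.55, limma adjusted p = 0.48). Over the 190 genes tested within 1 Mb of *atf-4*, 6.32% were higher and 10% lower without overlap, against 6.07% and 7.98% of all genes, and the median log2 fold change was 0.03. On the whole of chromosome X, 6.06% of 1600 genes were higher and 13.6% lower without overlap.

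Besides *atf-4*, the changes of greatest size were in a pair of neighbouring genes elsewhere on chromosome X. *spp-21* (11490130 to 11490494, plus strand), a member of the saposin-like family of small lipid-binding proteins that includes antimicrobial members, had 82, 117 and 61 reads in *atf-4(tm4397)*, against 0, 0 and 0 reads in WT. The gene was thus read in every mutant library and in no WT library. Set against a floor of 3 reads over the 3 WT libraries, its share of reads was at least 82.2-fold higher in the mutant. The fitted log2 fold change of 3.81 (SE 0.34, limma adjusted p = 0.0062) depends on the pseudocount and was 4.76 with a pseudocount of 0.5 and 2.09 with 4. ATF-4OE libraries had 0, 1 and 2 reads.

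The gene on the other side of *spp-21* fell. *T25C12.3* (11491087 to 11499999, minus strand), whose end faces that of *spp-21* at a distance of less than 1 kb in the annotation, was at 107.9, 112.8 and 74.0 ppm in *atf-4(tm4397)*, against 595.8, 490.5 and 651.0 ppm in WT. All mutant libraries were far below all WT libraries, at 14455, 16367 and 9318 reads in *atf-4(tm4397)*, against 83844, 61460 and 86861 reads in WT. The log2 fold change was -2.56 (SE 0.24, limma adjusted p = 0.0062), a 5.9-fold lower mean level. ATF-4OE was at 246.0, 236.5 and 409.4 ppm, and its own log2 fold change over WT was -0.997 (SE 0.24, limma adjusted p = 0.014).

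The next saposin-like gene on the chromosome, *spp-9*, was outside the genes tested because its level was under 5 ppm in every library, and it was singled out after its values were seen. It had 25, 28 and 24 reads in *atf-4(tm4397)*, against 2, 3 and 3 reads in WT, so that these libraries did not overlap either. In the fit with no minimum level its log2 fold change was 1.74 (SE 0.19) and the adjusted p was 0.021 (limma). ATF-4OE had 25, 21 and 31 reads of *spp-9*, a number close to that of the mutant, which was not the case for *spp-21*. Of the 13 measured genes of this stretch, *spp-9*, *spp-21* and *T25C12.3* were the 3 past the test with no minimum level. The 7 other genes above the minimum level lay between -0.26, for *hpo-34*, and 0.10 on the log2 scale. The counting is not stated to use strand, and the 3 genes do not overlap one another in the annotation. They lie on the same chromosome as the deletion, and a linked difference of the mutant strain was not tested.

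**Figure D2:**
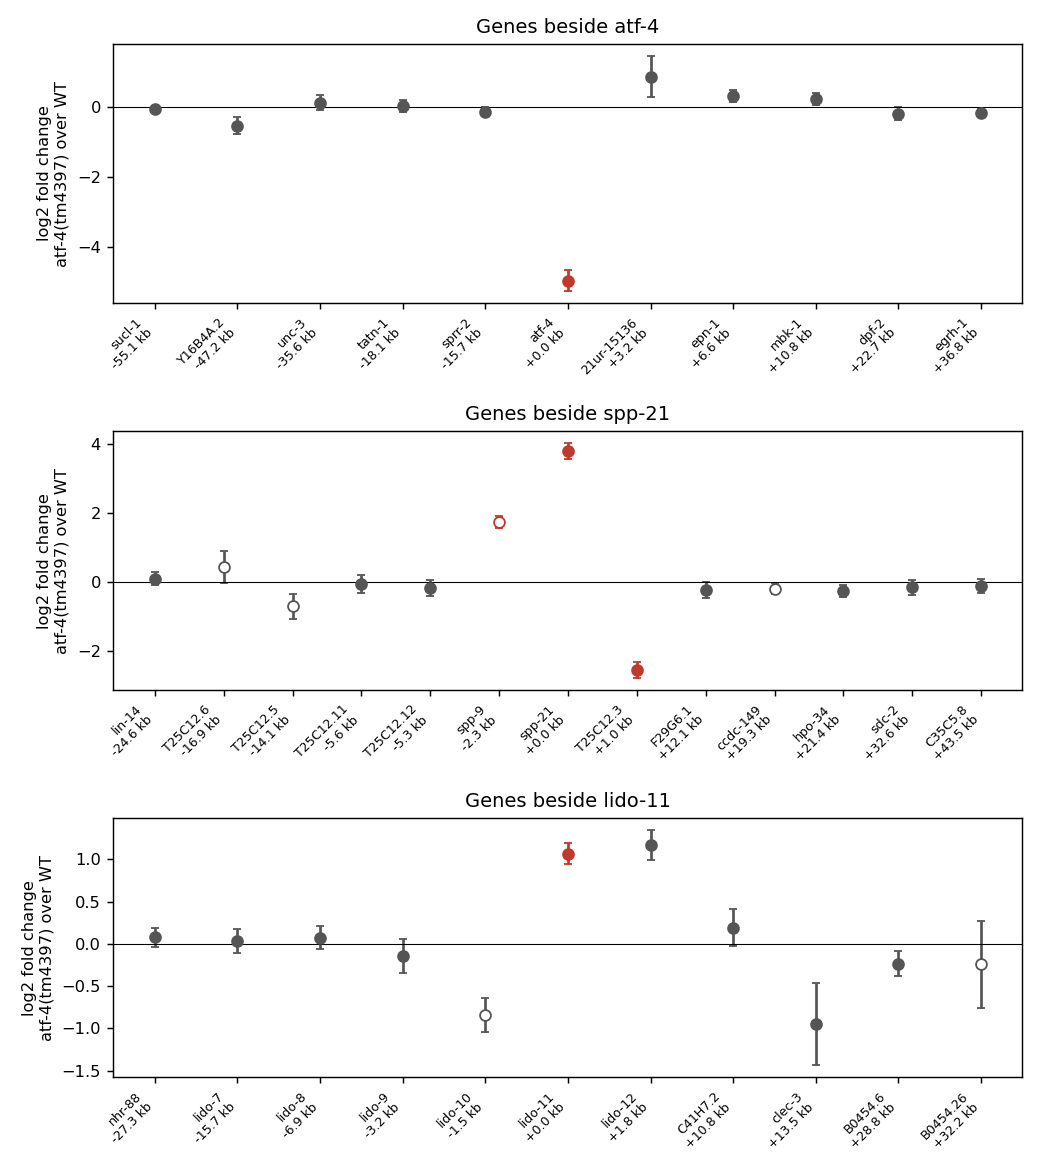
Log2 fold change of *atf-4(tm4397)* over WT with its standard error for the measured genes beside *atf-4* (top), *spp-21* (middle) and *lido-11* (bottom), in chromosome order, with each gene's distance in kb from the start of the central gene. Values are of the fit with no minimum level; open circles are genes under 5 ppm in every library and red marks an adjusted p under 0.1 in that fit. *spp-9*, *spp-21* and *T25C12.3* lie side by side, and *lido-10* lies below 0 beside *lido-11* and *lido-12* above it.

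On chromosome II, neighbours in a row of related genes also lay on both sides of 0, but *lido-11* alone passed the test. *lido-11* (3003967 to 3005593, plus strand) was at 8.06, 7.86 and 7.52 ppm in *atf-4(tm4397)*, against 3.00, 2.98 and 3.66 ppm in WT. Mutant libraries had 179, 189 and 157 reads and WT libraries 70, 62 and 81 reads, and the groups did not overlap. Its log2 fold change was 1.07 (SE 0.14, limma adjusted p = 0.047). The neighbours were singled out after their values were seen. *lido-12* had 151, 155 and 100 reads in *atf-4(tm4397)*, against 47, 52 and 35 in WT, a log2 fold change of 1.17 (SE 0.21) with an adjusted p of 0.46 (limma). *lido-10*, under the minimum level, went the other way, with 9, 10 and 4 reads in *atf-4(tm4397)*, against 35, 30 and 33 in WT. In the fit with no minimum level its log2 fold change was -0.84 (SE 0.20, limma adjusted p = 0.52). *lido-7*, *lido-8* and *lido-9* of the same row were at log2 fold changes of 0.03, 0.07 and -0.15. In ATF-4OE, *lido-10*, *lido-11* and *lido-12* were all above WT, at 107, 72 and 72 reads for *lido-10*, and the log2 fold change of *lido-11* was 0.77 (limma adjusted p = 0.0045).

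*scb-1* (chromosome V, 11118766 to 11119705, minus strand), a gene known for its part in the sensitivity of *C. elegans* to the drug bleomycin, was at 33.2, 34.4 and 31.8 ppm in *atf-4(tm4397)*, against 10.1, 10.2 and 15.6 ppm in WT. The mutant libraries were close to each other and above the highest WT library. The log2 fold change was 1.42 (SE 0.16, limma adjusted p = 0.026). ATF-4OE was near WT, with 10.7, 10.7 and 13.1 ppm and a log2 fold change of -0.04 (SE 0.16). *scb-1* overlaps the end of *math-33* on the other strand, and *math-33* was at a log2 fold change of 0.21 (SE 0.18) with overlapping libraries.

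*F18E3.12* (chromosome V, 7414985 to 7415254, plus strand) was at 50.2, 51.9 and 48.0 ppm in *atf-4(tm4397)*, against 27.6, 25.5 and 29.3 ppm in WT. The groups did not overlap and the log2 fold change was 0.84 (SE 0.10, limma adjusted p = 0.026). Its neighbours *F18E3.11* and *F18E3.13*, singled out after their values were seen, were higher without overlap as well, at log2 fold changes of 0.48 (SE 0.15) and 0.39 (SE 0.14), and neither passed the test. In ATF-4OE *F18E3.12* was at 42.6, 37.6 and 37.5 ppm, a log2 fold change over WT of 0.50 (SE 0.10, limma adjusted p = 0.0067).

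**Figure D3:**
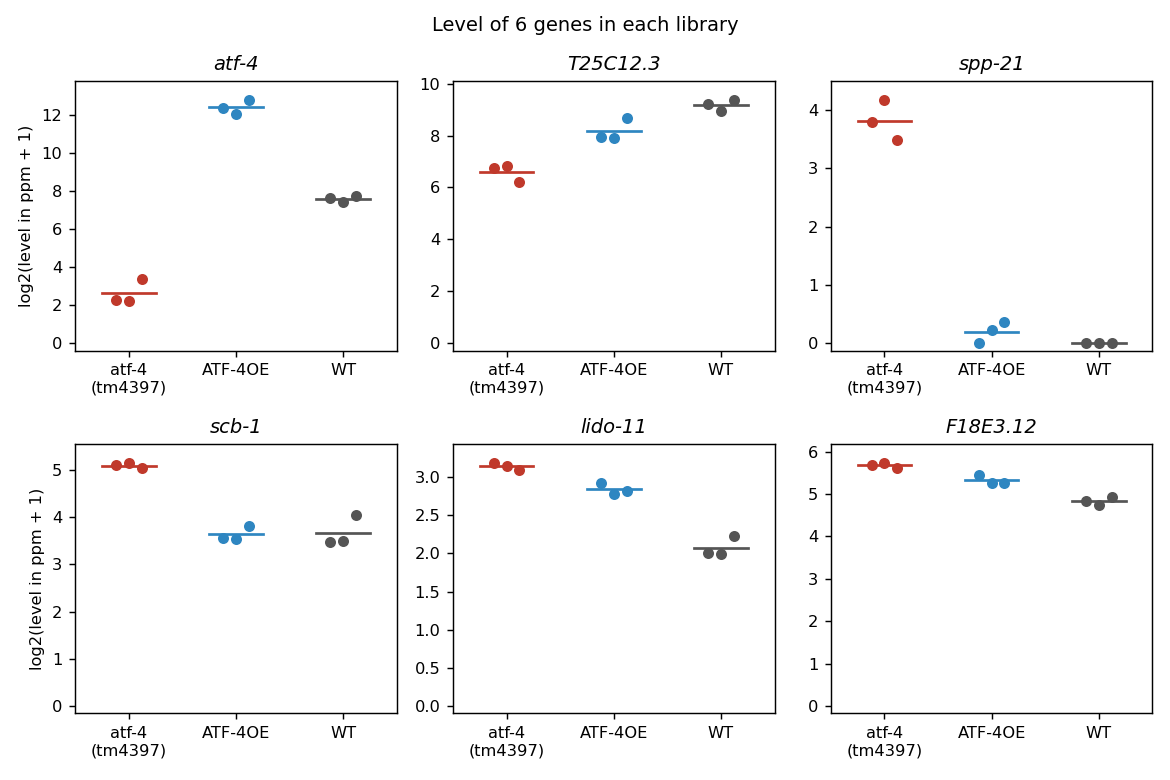
Log2(ppm + 1) in each library of *atf-4(tm4397)*, ATF-4OE and WT for the 6 genes at an adjusted p under 0.1 between *atf-4(tm4397)* and WT; points are libraries and bars are group means. The 3 mutant points lie outside the range of the 3 WT points in all 6 panels, and ATF-4OE lies near WT for *scb-1* and *spp-21* and between the mutant and WT for *T25C12.3*, *lido-11* and *F18E3.12*.

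These calls differed in how far they rested on the set of libraries. *atf-4*, *spp-21* and *T25C12.3* passed at an adjusted p under 0.1 when only the 6 mutant and WT libraries were fitted (limma adjusted p = 0.015, 0.015 and 0.024) and without any 1 of those libraries. In the same fit of 6 libraries, *scb-1*, *lido-11* and *F18E3.12* kept their fold changes and lost the call (limma adjusted p = 0.28, 0.47 and 0.21). *scb-1* also lost it without mutant replicate 2 (0.22) or WT replicate 2 (0.16), and *lido-11* without mutant replicate 2 (0.28) or 3 (0.20) or WT replicate 2 (0.28) or 3 (0.11). *F18E3.12* lost it without mutant replicate 2 (0.24) or WT replicate 2 (0.18) or 3 (0.10). With the replicate as a block, mutant replicates 2 and 3 exchanged as in the sheet of most regulated genes, *scb-1* stayed past the threshold (limma adjusted p = 0.022) and *lido-11* (0.20) and *F18E3.12* (0.12) did not.

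Across all genes tested, 360 were higher (3.19%) and 470 lower (4.16%) both at an unadjusted p under 0.05 and without overlap, and the largest differences among them included several genes of very few reads. Of the 10 higher genes of greatest log2 fold change in that set, *spp-21* is the first, and the next is the piRNA gene *21ur-1185* at 1.84 with 3, 2 and 1 reads in *atf-4(tm4397)*, against 1, 0 and 0 reads in WT. *F33H12.7*, among them, was at 9.01, 10.46 and 3.95 ppm in *atf-4(tm4397)*, against 1.73, 1.24 and 1.24 ppm in WT (1.79, limma adjusted p = 0.46). *F30H5.3* was at 25.5, 38.1 and 120.0 ppm in *atf-4(tm4397)*, against 16.3, 25.1 and 7.92 ppm in WT, a difference that was greatest in the third mutant library. Of the 10 lower genes, 5 were 21U-RNA genes, which encode the piRNAs of the germline, and their values rest on 0 to 7 reads per library. The other 5 were *atf-4*, *T25C12.3*, *clec-60*, *pud-3* and *drd-5*. *clec-60*, a C-type lectin gene that responds to bacterial infection, was at 6.57, 5.33 and 1.75 ppm in *atf-4(tm4397)*, against 11.2, 10.1 and 19.5 ppm in WT. *drd-5* was at 70.6, 60.7 and 26.8 ppm in *atf-4(tm4397)*, against 121.2, 87.2 and 144.2 ppm in WT, a log2 fold change of -1.22 (SE 0.35, limma adjusted p = 0.46).

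*acs-2*, which encodes a mitochondrial acyl-CoA synthetase of fatty acid oxidation, had the smallest adjusted p of the genes that did not pass (limma, 0.21) and was singled out for it. It was at 38.1, 38.1 and 63.1 ppm in *atf-4(tm4397)*, against 17.4, 20.9 and 17.3 ppm in WT. The lowest mutant library was well above the highest WT library, and the log2 fold change was 1.24 (SE 0.20). It passed in 3 of 22 other settings under the names of the centred sheet, and its adjusted p ran over them from 0.083 to 0.91 (limma), with the highest value without WT replicate 3.

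None of 8 orthologs of mammalian ATF4 targets that the study lists passed the test. Of these 8 genes, 2 were at an unadjusted p under 0.05, *glt-1* and *lec-5*, and the median log2 fold change was -0.04. The study chose these genes from ATF-4OE against the same WT libraries, so the list is not independent of them. *cth-2*, which encodes cystathionine gamma-lyase, the cysteine- and hydrogen sulfide-producing enzyme of transsulfuration, was at 168.5, 172.7 and 105.0 ppm in *atf-4(tm4397)*, against 224.5, 135.9 and 213.5 ppm in WT. The groups overlapped, and the log2 fold change was -0.36 (SE 0.23, limma adjusted p = 0.56). *C02D5.4* was at -0.03 (SE 0.14) and *F22F7.7* at 0.11 (SE 0.23), while their log2 fold changes in ATF-4OE over the same WT libraries were 2.33 and 3.71. *glt-1*, a glutamate transporter gene, was at 81.9, 85.6 and 115.1 ppm in *atf-4(tm4397)*, against 77.8, 72.9 and 53.8 ppm in WT (log2 fold change 0.46, limma adjusted p = 0.47). The galectin gene *lec-5* was at -0.29 (SE 0.13). The 14-3-3 gene *ftt-2*, which the study lists under targets shared with CHOP, was lower without overlap by only 0.06 on that scale, at 664.9, 635.2 and 638.0 ppm in *atf-4(tm4397)*, against 677.7, 672.9 and 669.9 ppm in WT.

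Of 18 measured genes of transsulfuration and hydrogen sulfide metabolism, 17 were above the minimum level and 0 of these passed the test. Their median log2 fold change was -0.08. *cysl-2*, which encodes a cyanoalanine synthase of the cysteine synthase family, was the 1 member whose libraries did not overlap, at 110.2, 135.2 and 163.1 ppm in *atf-4(tm4397)*, against 88.5, 84.5 and 65.8 ppm in WT. Its log2 fold change was 0.76 (SE 0.17, limma adjusted p = 0.46), and it was not above WT in ATF-4OE (-0.27, SE 0.17). The cystathionine beta-synthase gene *cbs-1* was at 0.10 (SE 0.16), *cth-1* at -0.08 (SE 0.26), and the cysteine dioxygenase gene *cdo-1* at 0.45 (SE 0.21). *cbl-1* was at 0.39 and *cysl-1*, which encodes a sensor of hydrogen sulfide, at -0.08, both with overlapping libraries. *cysl-4* was under the minimum level.

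In lists of amino acid supply, tRNA charging, the integrated stress response and bZIP factors, *atf-4* was the 1 gene past the test. Of 20 aminoacyl-tRNA synthetase genes, which charge tRNAs, 19 were above 0 on the log2 scale with a median of 0.12, a highest value of 0.31 for *gars-1*, and 0 past the test. The median was 0.06 without mutant replicate 3. Of 17 amino acid synthesis genes, 0 passed and 0 were without overlap, at a median of 0.01. The serine hydroxymethyltransferase gene *mel-32* was at 940.0, 986.5 and 738.7 ppm in *atf-4(tm4397)*, against 1105, 856.2 and 1235 ppm in WT (-0.26, SE 0.18). Of 22 amino acid transporter genes, 2 were higher and 5 lower without overlap, and 0 passed. Their shares were 9.09% and 22.7%, against 6.07% and 7.98% of all genes. *aat-6* was at 20.97, 22.4 and 18.2 ppm in *atf-4(tm4397)*, against 26.8, 27.4 and 27.4 ppm in WT, a log2 fold change of -0.40 (SE 0.14, limma adjusted p = 0.46). Of 17 genes of the methionine and folate cycles 0 passed, and *mtrr-1*, the methionine synthase reductase gene, was lower without overlap (-0.45, SE 0.16). The 5 propionate shunt genes lay between -0.17 and 0.13. In the list of 11 genes of the integrated stress response and eIF2, 9 were above 0 on the log2 scale and 2 below, 1 of them *atf-4*. The median was 0.21 against 0.02 for all genes tested, and 0.14 without mutant replicate 3. Without overlap 4 were higher (36.4%, against 6.07% of all genes). Among these 4, *atfs-1*, *zip-3* and *eif-2A* had log2 fold changes of 0.27 to 0.48 and adjusted p-values of 0.47 (limma). Of 22 genes of bZIP factors, the family of ATF-4, 3 were higher and 3 lower without overlap, and *atf-4* alone passed. Each share was 13.6%, against 6.07% and 7.98% of all genes.

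Of 15 genes of the mitochondrial unfolded protein response, which adjusts mitochondrial chaperones and proteases to protein damage, 4 were higher without overlap and 0 lower (26.7%, against 6.07% of all genes), with a median log2 fold change of 0.22 and 0 past the test. *hsp-6*, the mitochondrial HSP70 gene, was at 449.9, 526.4 and 685.7 ppm in *atf-4(tm4397)*, against 416.2, 418.8 and 338.6 ppm in WT (0.49, SE 0.17). *hsp-60* was at 740.7, 682.7 and 912.7 ppm in *atf-4(tm4397)*, against 651.6, 661.0 and 512.8 ppm in WT (0.35, SE 0.13). The other members without overlap were the protease gene *spg-7* (0.41, SE 0.13) and *atfs-1*, which encodes the factor that drives this response (0.48, SE 0.17). For these 4 genes the adjusted p-values were 0.46 to 0.47 (limma). In each of the 4 genes the third mutant library was the highest. Of 24 genes of the unfolded protein response of the endoplasmic reticulum, 0 were without overlap in either direction and the median was -0.04. Of 21 heat shock protein genes, 4 were higher and 0 lower without overlap, among them *hsp-12.2* (0.86, SE 0.31) and *hsp-90* (0.25, SE 0.09), and 0 passed. These 4 are 19% of the list, against 6.07% of all genes.

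**Figure D4:**
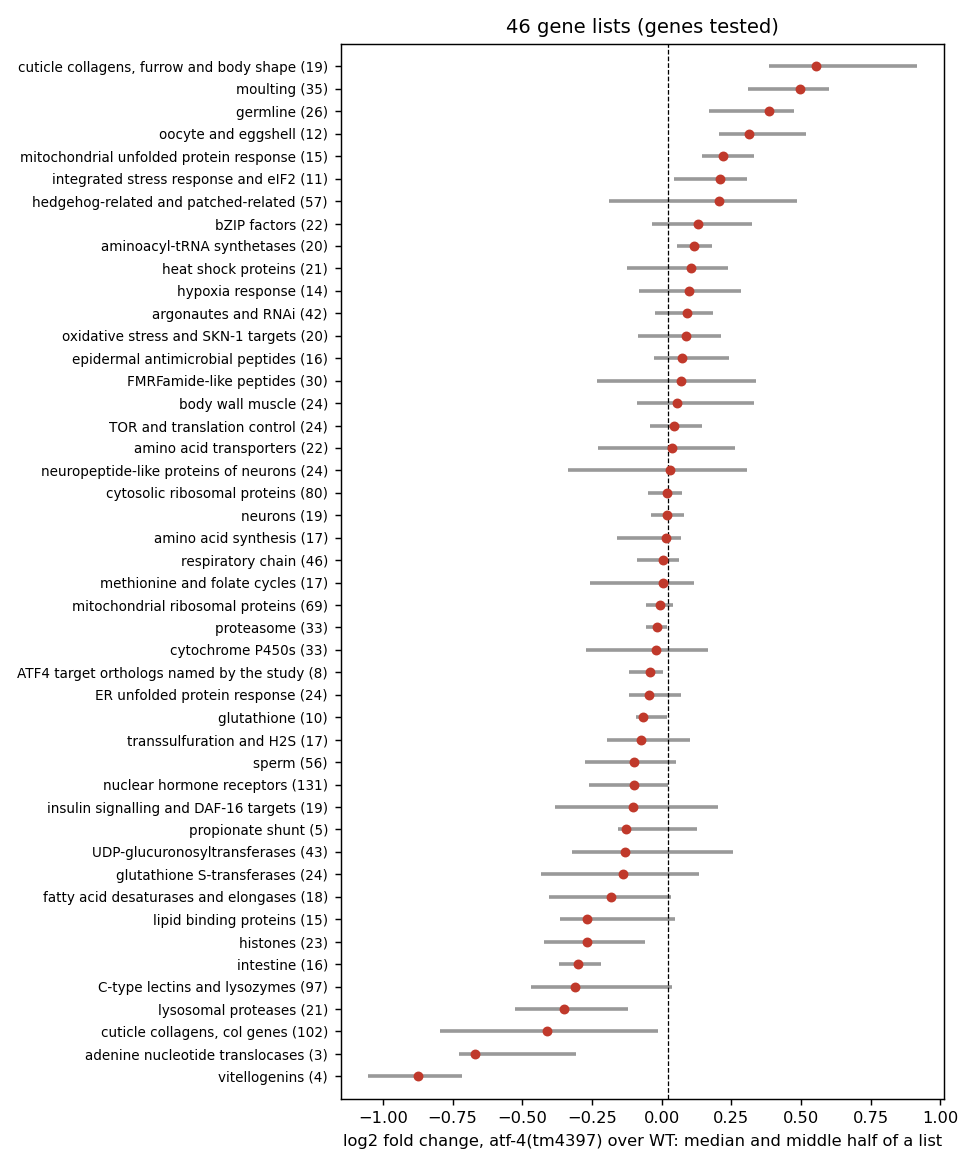
Median (red point) and range between the quartiles (grey line) of the log2 fold change of *atf-4(tm4397)* over WT for the genes tested of each of 46 gene lists, sorted by median; the dashed line is the median of all genes tested. Cuticle collagens of furrows and body shape (0.55) and moulting genes (0.50) are at the top; the lowest lists are the 4 vitellogenins, the 3 adenine nucleotide translocases and the *col* genes (-0.41), the first 2 of which were above 0 without mutant replicate 3.

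Genes of the epidermis and its cuticle, the collagen coat that is rebuilt at each moult, were the gene groups farthest from 0 among lists of more than 10 genes. Of 35 moulting genes, 33 were above 0 on the log2 scale, 8 were higher and 0 lower without overlap (22.9%, against 6.07% of all genes), and 0 passed the test, at a median of 0.50. *noah-1*, which encodes a component of the precuticle, was at 479.9, 390.8 and 547.6 ppm in *atf-4(tm4397)*, against 380.8, 178.1 and 224.6 ppm in WT (0.91, SE 0.28, limma adjusted p = 0.46). *wrt-2*, of the hedgehog-related family, was at 101.5, 88.2 and 125.1 ppm in *atf-4(tm4397)*, against 77.4, 38.8 and 47.4 ppm in WT (0.98, SE 0.25). In both genes WT replicate 1 lay just under the lowest mutant library and the other WT libraries far below. ATF-4OE was set against the same WT libraries. The median level of the 35 genes was 5.90, 5.96 and 6.26 on the log2(ppm + 1) scale in *atf-4(tm4397)* and 6.33, 5.79 and 6.22 in ATF-4OE, against 5.88, 5.65 and 5.60 in WT, and *noah-1* was at 0.74 in ATF-4OE over WT (SE 0.28, limma adjusted p = 0.077).

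Of 19 collagens of the furrows and of body shape, 12 were higher at an unadjusted p under 0.05, against 5.01% of all genes. Without overlap 5 were higher and 0 lower (26.3%, against 6.07% of all genes), and 0 passed, at a median of 0.55. On the log2 scale 16 of the 19 were above 0 and 3 below, and the values ran from -1.99 to 1.19. *dpy-17* was at 9.37, 11.7 and 15.1 ppm in *atf-4(tm4397)*, against 6.73, 3.57 and 4.09 ppm in WT (1.19, SE 0.24, limma adjusted p = 0.46). The furrow collagen gene *dpy-3* was at 430.3, 267.7 and 403.7 ppm in *atf-4(tm4397)*, against 285.2, 130.5 and 132.7 ppm in WT (1.07, SE 0.30). Here WT replicate 1 lay above mutant replicate 2, and the same held for *dpy-7* and *dpy-10*. Within the pairs of the exchanged numbers, each mutant library was above its WT library, by 0.59, 1.62 and 1.01 for *dpy-3*, 0.52, 1.34 and 0.75 for *dpy-7* and 0.53, 1.62 and 0.80 for *dpy-10* on the log2 scale. In ATF-4OE over the same WT libraries the log2 fold changes were 0.88 for *dpy-3*, 0.84 for *dpy-7* and 0.81 for *dpy-10* (limma adjusted p = 0.053, 0.035 and 0.053). ATF-4OE also carries the mutant collagen gene *rol-6(su1006)*, whose part in these values was not tested. Most *col* genes lay on the other side of 0: 78 of 102 were below 0 on the log2 scale, 1 was higher and 10 were lower without overlap (9.8%, against 7.98% of all genes), at a median of -0.41. *col-118* was at 227.0, 199.3 and 155.1 ppm in *atf-4(tm4397)*, against 255.7, 435.2 and 294.1 ppm in WT (-0.74, SE 0.20, limma adjusted p = 0.46). Of 57 hedgehog-related and patched-related genes, 9 were higher and 2 lower without overlap (15.8% and 3.51%, against 6.07% and 7.98% of all genes). *wrt-1* was at 182.3, 154.7 and 248.1 ppm in *atf-4(tm4397)*, against 134.7, 72.4 and 89.1 ppm in WT (0.995, SE 0.25).

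These genes cycle with the moult and others turn on late in L4, so the libraries were compared on genes that mark timing. The median log2(ppm + 1) of 56 sperm genes was 0.33, 3.65 and 0.04 in *atf-4(tm4397)*, against 1.36, 0.29 and 3.09 in WT. In each group 1 library was thus far above the others, mutant replicate 2 and WT replicate 3. The 4 vitellogenin genes, which encode yolk proteins, had medians of 3.65, 4.996 and 0.80 in *atf-4(tm4397)*, against 4.23, 2.05 and 5.46 in WT, and their log2 fold changes ran from -1.35 to -0.48 with standard errors of 0.84 to 1.504. Their median, -0.88 with all libraries, was 0.37 without mutant replicate 3. Those 2 libraries, mutant replicate 2 and WT replicate 3, carry the same replicate number in the sheet of most regulated genes. The part of timing in the differences of cuticle genes was not tested.

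**Figure D5:**
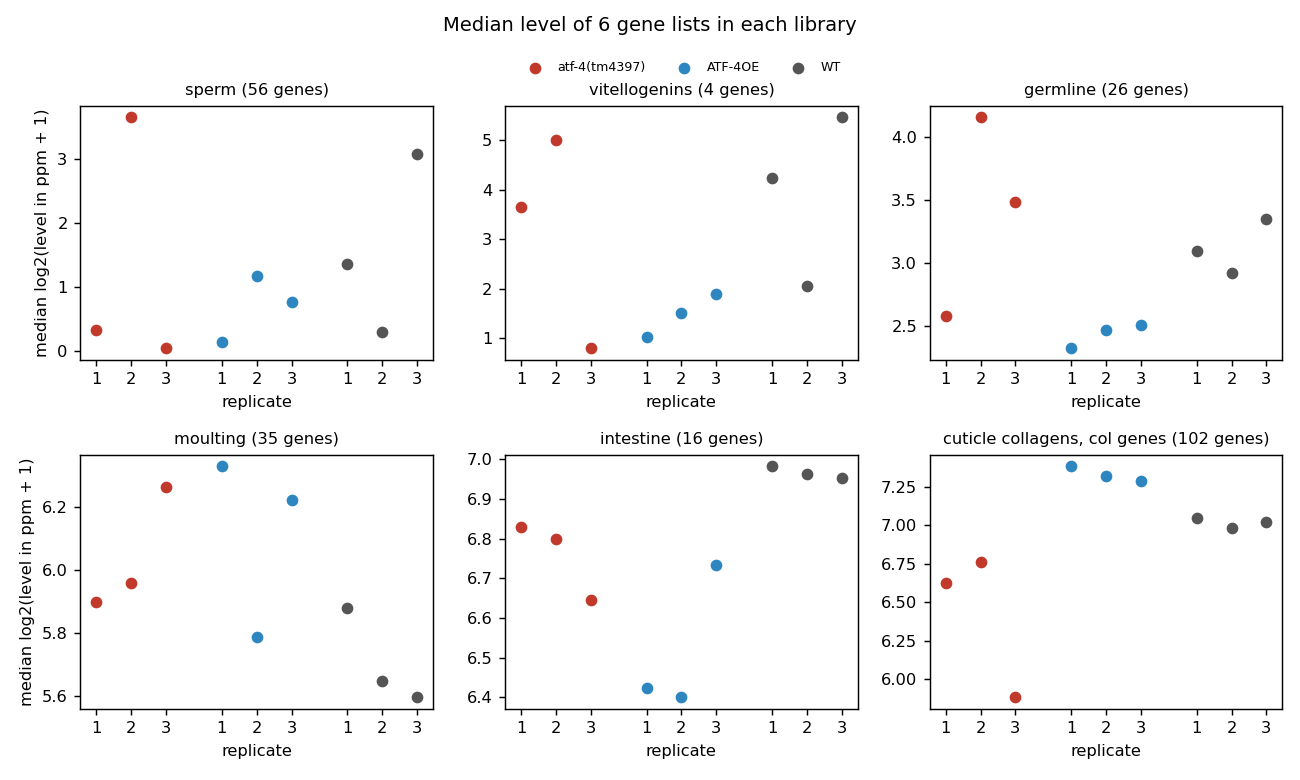
Median log2(ppm + 1) of the genes tested of 6 lists in each library of *atf-4(tm4397)*, ATF-4OE and WT, by replicate number in the centred and scaled sheet; each panel has its own vertical scale, which does not start at 0. Sperm genes and vitellogenins spread as widely within *atf-4(tm4397)* and within WT as between them, while the 3 mutant libraries lie below the 3 WT libraries for the intestine and the *col* genes and above them for moulting.

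Leaving out WT replicate 1, and no other single mutant or WT library, made many of these epidermal genes pass the test. It was the highest WT library in each of the collagen, precuticle and lipocalin genes named in this paragraph. Without WT replicate 1, 37 genes rose (0.328%) and 7 fell (0.062%) in *atf-4(tm4397)*, of which 14 that rose belong to the collagen, moulting and hedgehog-related lists. Among the 37, singled out after their values were seen, were the collagens *dpy-2*, *dpy-3*, *dpy-7*, *dpy-8*, *dpy-9*, *dpy-10* and *dpy-17*, the precuticle genes *noah-1* and *noah-2*, and the lipocalin genes *lpr-3*, *lpr-4*, *lpr-5* and *lpr-6*. Without WT replicate 1 the log2 fold change of *dpy-3* was 1.44 (limma adjusted p = 0.058) and that of *lpr-3* 1.34 (0.058).

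Without mutant replicate 1, 35 genes rose (0.31%) and 8 fell (0.0709%), and 7 of those that rose belong to the germline, oocyte and argonaute lists and 1 to the collagen, moulting and hedgehog-related lists. Among the 35 were *pgl-1* and *glh-2*, which encode components of the germ granules, the meiotic cohesin gene *rec-8*, the RNA-binding *daz-1* and the argonaute genes *hrde-1*, *wago-4* and *ppw-2*. *pgl-1* was at 25.6, 87.0 and 53.5 ppm in *atf-4(tm4397)*, against 36.44, 28.8 and 28.9 ppm in WT, so that mutant replicate 1 was the lowest library of both groups and the other mutant libraries the highest. The germline list of 26 genes had a median log2 fold change of 0.39 with all libraries, 0.78 without mutant replicate 1 and 0.01 without mutant replicate 2. The 2 sets of calls shared 4 genes that rose and 2 that fell, and 5 of these 6 were the genes called with all libraries. The other was *dpy-17*, at log2 fold changes of 1.42 without WT replicate 1 (limma adjusted p = 0.080) and 1.34 without mutant replicate 1 (0.095).

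Intestinal genes lay slightly below WT without passing the test. All 16 intestine markers tested were below 0 on the log2 scale, 8 were lower and 0 higher without overlap (50%, against 7.98% of all genes), at a median of -0.30. *elt-2*, the GATA factor that maintains intestinal identity, was at 41.7, 41.6 and 29.8 ppm in *atf-4(tm4397)*, against 49.2, 44.2 and 53.7 ppm in WT (-0.38, SE 0.15, limma adjusted p = 0.47). *ifb-2*, which encodes an intestinal intermediate filament, was at 392.5, 388.6 and 306.1 ppm in *atf-4(tm4397)*, against 462.8, 520.4 and 458.8 ppm in WT (-0.41, SE 0.15). In both genes mutant replicate 3 was the lowest of the 6 libraries, and the median level of the 16 markers was 6.83, 6.80 and 6.65 on the log2(ppm + 1) scale in *atf-4(tm4397)*, against 6.98, 6.96 and 6.95 in WT. ATF-4OE, at 6.42, 6.40 and 6.73, was below the same WT libraries too, and *elt-2* was at -0.79 there (SE 0.15, limma adjusted p = 0.0056). Without mutant replicate 3 the median log2 fold change of the markers was -0.19. Markers of body wall muscle (median 0.05, 24 genes) and of neurons (0.02, 19 genes) were near the median of all genes.

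Gene families expressed largely in the intestine had more members below WT than above it, with exceptions. Of 97 C-type lectin, lysozyme and saposin-like genes, 3 were higher and 13 lower without overlap (13.4%, against 7.98% of all genes), at a median of -0.31 (-0.14 without mutant replicate 3), and *spp-21* was the 1 that passed. *clec-41* was higher without overlap (0.54, SE 0.12), and *clec-60*, given above, had the lowest value of the list. Of 21 lysosomal protease genes, 18 were below 0, 3 were higher and 5 lower without overlap, and 0 passed. The shares without overlap were 14.3% and 23.8%, against 6.07% and 7.98% of all genes. The cathepsin B-like gene *cpr-5* was at 946.5, 1003 and 1070 ppm in *atf-4(tm4397)*, against 717.5, 567.3 and 583.9 ppm in WT (0.70, SE 0.13, limma adjusted p = 0.46), while it was below WT in ATF-4OE (-0.95, SE 0.13). The aspartyl protease gene *asp-13* was at 325.3, 237.8 and 241.0 ppm in *atf-4(tm4397)*, against 421.7, 391.3 and 639.1 ppm in WT (-0.83, SE 0.24).

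Among 18 fatty acid desaturase and elongase genes, 3 were higher and 3 lower without overlap, and 0 passed. Each share was 16.7%, against 6.07% and 7.98% of all genes. *fat-7*, a delta-9 desaturase gene, was at 152.3, 131.6 and 94.1 ppm in *atf-4(tm4397)*, against 176.4, 240.1 and 303.0 ppm in WT (-0.92, SE 0.25, limma adjusted p = 0.46). *nhr-80*, which encodes a nuclear receptor that activates the delta-9 desaturases, was at 28.2, 25.6 and 21.02 ppm in *atf-4(tm4397)*, against 33.1, 32.8 and 34.0 ppm in WT (-0.41, SE 0.13). The delta-6 desaturase gene *fat-3* was higher without overlap, at 160.9, 152.1 and 147.4 ppm in *atf-4(tm4397)*, against 134.1, 105.1 and 128.2 ppm in WT (0.33, SE 0.11). Of 131 nuclear hormone receptor genes, 27 were lower and 5 higher without overlap (20.6% lower, against 7.98% of all genes), at a median of -0.10. Of 43 UDP-glucuronosyltransferase genes, which conjugate foreign compounds, 11 were lower and 6 higher without overlap. These shares were 25.6% and 14%, against 7.98% and 6.07% of all genes. *ugt-23* was at 57.7, 64.6 and 44.5 ppm in *atf-4(tm4397)*, against 79.8, 77.0 and 91.3 ppm in WT (-0.58, SE 0.15, limma adjusted p = 0.46).

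Genes of the large constitutive machineries lay close to 0. The medians were 0.02 for 80 cytosolic ribosomal protein genes, between -0.16 and 0.15 for every member, -0.02 for 33 proteasome genes, 0.01 for 46 respiratory chain genes and 0.04 for 24 genes of TOR signalling and translation control. Of the other lists, genes of the hypoxia response, of glutathione metabolism, of SKN-1 and DAF-16 targets, of the glutathione S-transferases, cytochrome P450s, neuropeptides, epidermal antimicrobial peptides, lipid binding proteins and histones had 0 members past the test and medians from -0.27 to 0.10. No member passed either among 42 argonaute and RNA interference genes (median 0.09), 69 mitochondrial ribosomal protein genes (median under 0.01 in size), 56 sperm genes (-0.10), 3 adenine nucleotide translocase genes (-0.67) and 12 oocyte and eggshell genes (0.32). The last 3 medians turned with 1 library left out. That of the sperm genes ran from -1.27 without mutant replicate 2 to 0.66 without WT replicate 3, that of the translocases from -2.06 without mutant replicate 2 to 0.19 without mutant replicate 3, and that of the oocyte genes from -0.04 without mutant replicate 2 to 0.68 without mutant replicate 1.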

How the data were processed

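RNA of whole L4 animals was sequenced in 9 libraries, all on a single lane, 3 each of *atf-4(tm4397)*, ATF-4OE and WT. Per the labels and the study's methods, the authors ran STAR 2.4.0j as the aligner, with WBcel235 as the genome build, featureCounts for reads per gene, and edgeR; library strandedness is not given in the sources used here. The authors deposited RPKM per gene, made after genes of low CPM were dropped, and a sheet of the same values centred and scaled by library, deposited as a score with no fixed range. The centred score was put back on a linear scale by subtracting each column's minimum and scaling to a sum of 1000000 (ppm). Whole reads were recovered from RPKM for 14218 of 14218 genes within 0.01 read and served for read counts and for an alternative fit. Their gene lengths were inferred as lengths that make the reads whole. Such a length was within 20% of the annotation for 11985 of 14092 genes (85.0%), so read counts of the others are less sure. Columns of the authors' own comparisons were not used.

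Genes at 5 ppm or more in at least 1 library (11287 of 14218) were tested with limma 3.58.1 (R 4.3.3) on log2(ppm + 1), with a variance trend, all 9 libraries in 1 fit and two-sided p-values adjusted by the Benjamini-Hochberg method over all genes tested. The test was checked on simulated data with independent noise in each library. Such data do not gauge false calls from deviations that libraries share. Tables and plots were made with Python 3.11.15, pandas 2.3.3, numpy 2.4.6 and matplotlib 3.10.9. Symbols and coordinates came from the Ensembl annotation of WBcel235, which matched 14092 of 14218 IDs. Counting error is small at these depths except for genes of few reads.

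Replicates are labelled as independent biological replicates, cultured in parallel across genotypes. The centred sheet and the sheet of most regulated genes number mutant replicates 2 and 3 differently. With these exchanged, deviations from the group means correlated at 0.26, 0.68 and 0.76 between mutant and WT libraries. Without the exchange they correlated at 0.26, -0.68 and -0.62. ATF-4OE libraries correlated with the WT libraries of the same number at -0.01, -0.28 and 0.18. The exchanged pairing thus rests on 1 sheet and on the values of these data. Whether paired libraries share a culture or only a similar stage was not tested.

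Named genes were *atf-4*, all genes past the test, the 10 genes per direction of largest change at an unadjusted p under 0.05 without overlap, up to 4 members of smallest p from each of 46 lists of pathways, families and tissues, all members of the ATF4 target and transsulfuration lists, and the 5 genes on each side of *atf-4*. Of 586 names given in the lists, 59 were not matched in the sheet. The genes, lists and tests were chosen with earlier results of these data known. Alternatives were other pseudocounts, filters, scalings, library sets, replicate blocks, library weights, no trend, the scores as deposited, the RPKM sheet's names and, added after seeing the data, voom on the recovered reads and blocks within the 6 libraries.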

Additional observations from a re-analysis of the deposited data

How the results depend on the processing

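With all libraries, 3 genes were higher and 2 lower in *atf-4(tm4397)* than in WT. Leaving out 1 mutant or WT library at a time, 1 to 37 genes were higher and 2 to 8 lower: 35 and 8 without mutant replicate 1, 37 and 7 without WT replicate 1, and 1 and 2 without mutant replicate 2 or WT replicate 2. When only the 6 mutant and WT libraries were fitted, 1 gene was higher and 2 were lower. The numbers of the centred sheet as a replicate block left 0 higher and 1 lower in the 6 libraries, and the exchanged numbers as a block left 1 and 2. With all 9 libraries, either replicate block gave 2 and 2, and the log2 fold change of *atf-4* stayed at -4.98. Under the RPKM sheet's names 0 genes were higher and 0 lower. On the centred and scaled values with no fold limit, 3 genes were higher and 1 was lower, and *atf-4* was at -0.43 in units of that scale (limma adjusted p = 0.81). Every other setting kept the counts at 2 to 4 higher and 2 or 3 lower. Among the named genes, direction turned in 3 that lay near 0 and were not called. *cth-1* was at 0.0022 on the centred and scaled values, and its values without 1 library ran from -0.39 to 0.11. Those of *C02D5.4* ran from -0.13 to 0.061, and those of *F22F7.7* from -0.14 to 0.28. The cause of these changes was not tested. Of 22 settings with the names of the centred sheet, *atf-4* and *T25C12.3* were past the adjusted p in 21, *scb-1* in 16, *F18E3.12* in 12 and *lido-11* in 10, and *spp-21* in 20 of 21. The 21U-RNA genes named rest on 0 to 7 reads per mutant or WT library.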

Other observations

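Some genes outside the lists were lower in all 3 *atf-4(tm4397)* libraries than in any WT library without passing the test, and they were singled out after their values were seen. *hmit-1.1*, which encodes a transporter of myo-inositol, was at 54.3, 33.3 and 24.98 ppm in *atf-4(tm4397)*, against 73.7, 86.3 and 85.5 ppm in WT. The log2 fold change was -1.17 (SE 0.23, limma adjusted p = 0.46). ATF-4OE was at 72.4, 78.1 and 76.5 ppm, near WT. *irg-5*, a gene induced by bacterial infection, was at 22.2, 14.6 and 11.1 ppm in *atf-4(tm4397)*, against 39.7, 34.2 and 25.7 ppm in WT, a log2 fold change of -1.04 (SE 0.25, limma adjusted p = 0.46). ATF-4OE was lower still, at 8.02, 12.27 and 10.6 ppm, with its own log2 fold change over WT of -1.59 (SE 0.25, limma adjusted p = 0.0028). Both genes passed the test without mutant replicate 1, in which their levels were the highest of the mutant group (limma adjusted p = 0.036 and 0.092).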
